A study of Homo sapiens with 8 samples.

Results

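VTCN1, which encodes the immune checkpoint ligand B7-H4, was followed together with the other B7 ligands that an epithelial or antigen-presenting cell can carry: CD274 (PD-L1), PDCD1LG2 (PD-L2), CD276 (B7-H3), CD80 (B7-1), CD86 (B7-2), ICOSLG (B7-H2) and HHLA2 (B7-H7). The genes were chosen on the rise of VTCN1 after knockdown of HNF4A, and the others were taken as its family, so the values of VTCN1 are given as a description with no test. Of the 8 genes, 7 were in the table of 30755 gene symbols, and PDCD1LG2 was not analysed here. Expression came from RNA-seq of ESO26, an established cell line of oesophageal adenocarcinoma grown in RPMI-1640 medium with serum. The libraries were 2 from cells treated with siRNA against HNF4A (siHNF4A, labelled HNF4A knockdown) and 2 from control cells. HNF4A is a nuclear receptor-type transcription factor of liver and gut epithelium. The time after treatment, the siRNA sequences and the kind of control are not given in the sources used here. Nothing states that the libraries came from separate cultures, so p-values measure the spread between these libraries, which may be technical. The series' design text speaks of sequencing in triplicate, whereas 2 libraries a group were used here.

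B7 ligands are transmembrane proteins of the immunoglobulin superfamily that sit on one cell and signal to a T cell through receptors of the CD28 family. CD80 and CD86 on antigen-presenting cells give the second signal for T-cell activation through CD28 and a brake through CTLA4, while PD-L1 and PD-L2 bind PD-1 and restrain activated T cells. B7-H4 inhibits T cells through a receptor that is not established, is restricted in normal tissue mostly to ductal and glandular epithelia, and is carried by many carcinomas. As a cell line holds no tumour stroma or immune infiltrate, its transcripts report on the carcinoma cells alone.

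The upstream sequence of VTCN1 is shown because it is the gene with the large change, and that of CD274 because it is the B7 ligand best known for induction by interferon-gamma and was scarcely expressed here. Both are the 250 bases before the annotated start in RefSeq (GRCh38.p14), 5′ to 3′ on the strand of the gene. VTCN1 lies on the minus strand (chr1:117210928-117211177) and CD274 on the plus strand (chr9:5450292-5450541). Capitals mark every match, on either strand, to the motifs searched in these bases.

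VTCN1: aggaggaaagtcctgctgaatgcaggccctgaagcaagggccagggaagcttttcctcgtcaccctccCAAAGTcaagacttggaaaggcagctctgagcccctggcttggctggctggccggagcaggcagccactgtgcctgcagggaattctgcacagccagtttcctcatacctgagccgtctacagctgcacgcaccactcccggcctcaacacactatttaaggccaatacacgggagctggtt

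CD274: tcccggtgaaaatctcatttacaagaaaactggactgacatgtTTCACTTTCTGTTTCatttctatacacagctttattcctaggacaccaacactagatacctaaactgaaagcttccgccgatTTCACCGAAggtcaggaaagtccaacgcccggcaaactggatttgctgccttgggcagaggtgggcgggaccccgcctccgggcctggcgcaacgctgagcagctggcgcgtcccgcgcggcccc

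The motifs were chosen with the expression results known and the promoters in view. For HNF4-type elements they were CAAAGTNCA and the first letters of it alone, CAAAGT. For the direct repeat that nuclear receptors bind the core GGNCAAAG was used. Factors of the GATA family were searched as AGATAA, which is a common form of their site. GAAANNGAA stood for part of the interferon-stimulated response element and TTCNNNGAA for the STAT element. The shorter HNF4-type form lies inside the longer one, and any letter may stand at N. RefSeq windows, each from 250 bases before to 50 after the start, were at hand for 7 of the 8 genes, 11 windows in all. The VTCN1 window held CAAAGT once, starting 182 bases before the gene's start, and none of the longer motifs. CAAAGT occurred in 11.9% of the 35116 promoter windows of the RefSeq table, so a match of this kind is common. The full HNF4-type motif, present in 1.1% of all windows, was in 0 of the 11, as were GGNCAAAG (4.92% of all windows) and AGATAA (10.3%). CD274 held 2 overlapping matches to GAAANNGAA, 207 and 201 bases before the start, and 1 match to TTCNNNGAA at 125 bases. These motifs occurred in 8.11% and 7.66% of all windows. The only other match was GAAANNGAA in 1 of the 3 windows of HHLA2, 42 bases after that start. The 250 bases upstream held 6 CpG in VTCN1 and in CD80, 0 to 4 in the windows of HHLA2 and CD86, 16 in CD274, 23 and 29 in those of CD276 and 36 in ICOSLG, and the median over all windows was 11. Whether HNF4A occupies any of these sequences was not analysed here, because no annotation of hg19, the build named in the submitters' processing notes, was used.

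The knockdown was checked first. HNF4A had 4129 and 3937 normalized counts in the control libraries, against 1140 and 932 in the siHNF4A libraries, 25.7% of the control mean. The identity of the cells was read from lists of markers. Of the columnar epithelial markers 9 of 10 were in the table, and they summed to 103037 and 108548 normalized counts in the controls, above the 99112 and 97175 of the knockdown. In limma 6 of these 9 were called (66.7%, against 14.1% of all genes tested), 2 higher and 4 lower in the knockdown. Their means ran from 700 (KRT20) to 27900 normalized counts (EPCAM), with standard errors of the log2 fold change from 0.044 to 0.11. Small changes could therefore be called, and the share over all genes is not at a like expression level. The 11 leukocyte markers found summed to 469 and 485 in the controls and to 293 and 400 in the knockdown. The pan-leukocyte gene PTPRC lay between 0 and 2.05, and CD4, CD8A and CSF1R did not exceed 6.71. CD68 lay between 28.5 and 64.4 and LYZ between 29.2 and 78.7. ITGAX and ITGAM stood at 34.6 and 29.7 in siHNF4A 2, against 2.52 and 5.38 in siHNF4A 1. Of the 11 markers 7 were tested and 1 was called (14.3%, against 14.1% of all genes). The called gene, which was the largest in each library, was CD83, a surface protein of activated dendritic cells, which fell from 304 ± 15.0 to 186 ± 14.4 (SD, n = 2 in each group, as throughout; adjusted p = 0.0104 in limma). The 8 fibroblast and endothelial markers found summed to 235 and 151 in the controls and to 305 and 284 in the knockdown, and the 5 squamous markers to between 15.0 and 36.2. COL1A1 made up most of the fibroblast and endothelial sum, with 179 and 108 in the controls, against 202 and 212 in the knockdown. Of the rest VWF was higher in the knockdown, while COL1A2, DCN, PDGFRB and CDH5 lay between 3.04 and 17.0 in every library. The part of these changes in the results was not tested. The normalized counts summed to between 17912507 and 18613685 per library, and the absolute number of reads is unknown. From the commonest low value, the depth of the siHNF4A libraries was put at about 1.36 and 1.21 times that of control 1, and that of control 2 at about 1.09 times. This is an indirect estimate, as only 23.1% to 53.2% of values under 20 lay on whole steps. The knockdown libraries listed fewer genes at 0 (4260 and 4362) than the controls (5479 and 5640), which bears on the members near 0.

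VTCN1 was higher in both knockdown libraries. It had 228 and 253 normalized counts in the control libraries, against 810 and 809 in the siHNF4A libraries. These lay close together and far above both controls, with means of 240.4 ± 17.9 and 809 ± 0.90. The ratio of the means was 3.37 and the log2 fold change, on the log2(normalized count + 1) scale, was 1.75 with a standard error (SE) of 0.11. By this value VTCN1 ranked 68 among the 15577 genes tested, and 6 among the 10918 of them whose mean reached 100 normalized counts. The genes directly beside it in the ranking were TRPA1, an ion channel, at 1.75 and HIST1H2BG, a replication-dependent histone H2B gene, also at 1.75. Their means over the 4 libraries were 21.8 and 61.8 normalized counts. VTCN1 overlaps no other gene in the RefSeq annotation, where it spans chr1:117143587-117210927.

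None of the other B7 ligands that could be tested was called. HHLA2, whose product engages TMIGD2 on T cells and NK cells and is known from normal gut epithelium, had 60.0 and 63.4 normalized counts in the controls, against 37.5 and 27.2 in the knockdown. The gene shares its locus with the pseudogene HNRNPA1P17 in RefSeq. The groups did not overlap, as was so for 57% of all genes tested, and the knockdown mean was 52.5% of the control mean. Its log2 fold change of -0.93, SE 0.29, was not past the threshold (adjusted p = 0.0605 in limma). With quantile normalization it was -1.05 and past it (adjusted p = 0.0425 in limma), and over the 11 alternatives run the adjusted p went from 0.0425 to 0.272.

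ICOSLG, the ligand of the T-cell costimulator ICOS, had 407 and 476 normalized counts in the controls, against 389.6 and 391 in the knockdown. Both knockdown libraries were below both controls, but control 1 lay nearer to them than to control 2. Its log2 fold change was -0.17, with a 95% interval from -0.44 to 0.098 (adjusted p = 0.390 in limma). CD276, an inhibitory ligand widely expressed in carcinomas, had 2339 and 2526 normalized counts in the controls, against 2474 and 2621 in the knockdown. These groups overlapped, and the log2 fold change of 0.067 had a 95% interval from -0.093 to 0.23 (adjusted p = 0.588 in limma). The 95% interval of HHLA2 runs from -1.57 to -0.28.

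Of these 3 genes, 0 were called in limma at an adjusted p under 0.05, and 1, HHLA2, had an unadjusted p under 0.05. Over all 15577 genes tested 14.1% were called, 6.02% higher and 8.11% lower in the knockdown. Those calls, for the lists and neighbours too, rest on modelling the variance as a trend over expression, since without the trend limma called 0 genes, with 3524 at an unadjusted p under 0.05. Of the 16 calls, BTNL3 included, among the related lists and genome neighbours, testing without the low-value filter lost 9, those of NCR3LG1, PVR, NECTIN2, IRF1, TENT5C, WDR3, SLC15A2, POGLUT1 and CIP2A, and quantile normalization lost those of NECTIN2, IRF1 and POGLUT1. Where a library was left out, the lone library of its group was assumed to vary like the other group, so the adjusted p of such a fit rests on the spread of that group and of other genes. Ratios of VTCN1 to HHLA2 and to ICOSLG inside each library are given as a description. The VTCN1 value was 3.80 and 3.99 times that of HHLA2 in the control libraries, against 21.6 and 29.7 times in the knockdown libraries. Relative to ICOSLG it was 0.56 and 0.53 times in the controls, against 2.08 and 2.07 times in the knockdown. These ratios are of normalized counts that are not corrected for gene length, so their size in a single library is not read. As VTCN1 was chosen for its rise, their increase largely follows from that choice and is not a separate result.

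The remaining 3 B7 ligands were at the lower edge of detection and were not tested, as their means were under 10 normalized counts. CD274, the PD-L1 gene, had 11.6 and 11.1 normalized counts in the controls, against 11.2 and 4.83 in the knockdown. Its libraries overlapped, with siHNF4A 2 alone low, and the gene shares its locus with the noncoding RNA INCR1 in RefSeq. CD80 had 1.22 and 1.11 in the controls and was listed at 0 in both knockdown libraries. CD86 had 0.63 and 0 in the controls, against 0.62 and 2.82 in the knockdown. Values above 0 and under 3 were held by 5590 to 6796 genes per library, so no direction is read from CD80 or CD86. CD80 also overlaps TIMMDC1, a mitochondrial assembly factor with a mean of 1136 normalized counts, and CD86 overlaps ILDR1, while the strand setting of the counting is not given in the sources used here.

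**Figure D1:**
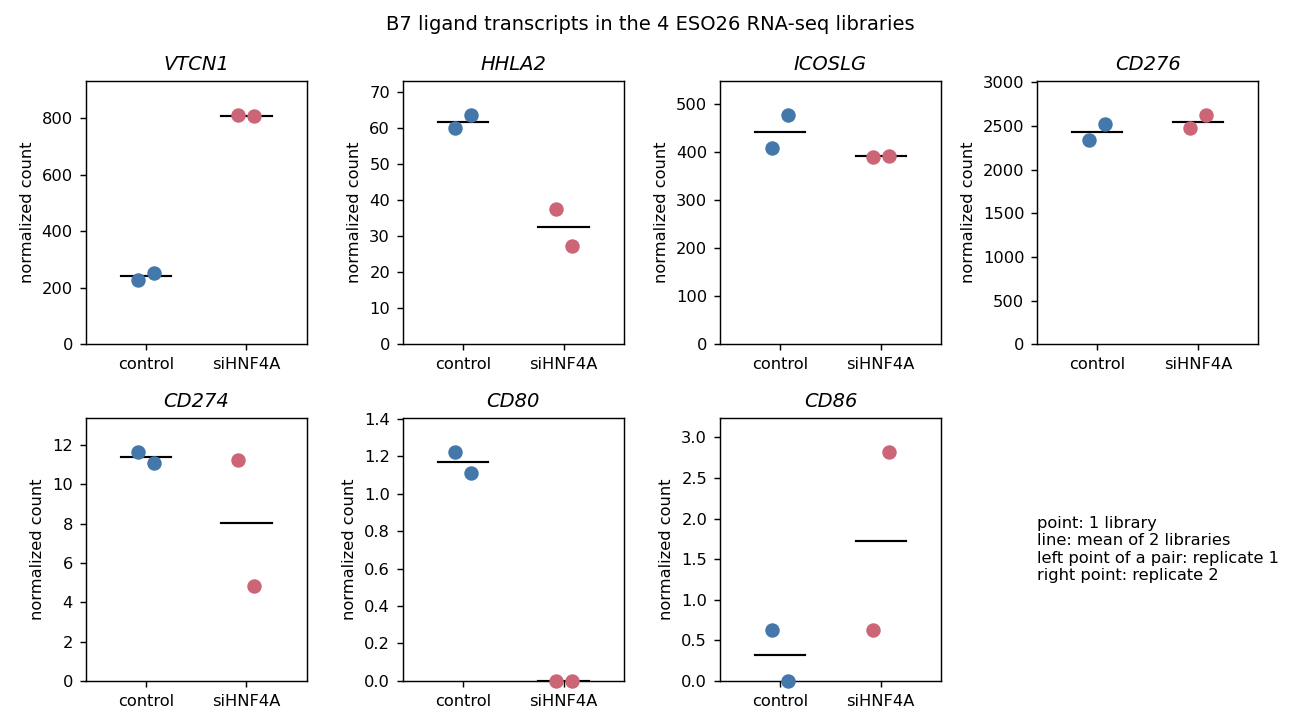
Normalized counts (vertical axes, linear from 0, each panel with its own scale) of the 7 B7 ligand genes found in the table, with 1 point per library and a line at the mean of the 2 libraries of a group. VTCN1 goes from 228 and 253 in the controls to 810 and 809 after knockdown, HHLA2 is lower in both knockdown libraries, and CD274, CD80 and CD86 stay under 12 in every library.

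The wider B7 and butyrophilin group was then examined, from a list of 16 genes. Of these 15 were in the table, 3 were under the filter and 12 were tested. Among the 12, 9 were not called and 3 were, 1 higher and 2 lower, where 14.1% of all genes were called. As 1 of these 3, BTNL3, was tested through its control values alone, nothing is read from the count. The median log2 fold change was -0.14, against -0.007 over all genes tested.

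ILDR2, a B7-like immunoglobulin-domain protein reported as a T-cell inhibitor, rose beside VTCN1. It had 153.5 and 153.4 normalized counts in the controls, against 367 and 361 in the knockdown, which did not overlap. The log2 fold change was 1.24, SE 0.14 (adjusted p = 5.75e-04 in limma). ILDR2 overlaps a RefSeq locus of unknown function.

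BTNL3 had the lowest log2 fold change of the 12 relatives past the filter. It is a butyrophilin-like protein that pairs with BTNL8 on gut epithelial cells and is recognised by gamma-delta T cells. It had 45.2 and 42.2 normalized counts in the controls, against 4.49 and 9.11 in the knockdown, 15.6% of the control mean. As both knockdown values are under 10, it passed the filter through the controls alone, so its log2 fold change of -2.58 is given with no test. Its partner BTNL8 had 415 and 466 normalized counts in the controls, against 339.6 and 360.2 in the knockdown. BTNL8 was not called (log2 fold change -0.33, adjusted p = 0.0985 in limma), although its groups did not overlap either. BTNL3 and BTNL8 are similar in sequence, so reads may have been split between them.

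NCR3LG1, which encodes B7-H6, the tumour-cell ligand of the NK-cell receptor NKp30, fell. It had 310.0 and 302.5 normalized counts in the controls, against 177 and 202 in the knockdown, a log2 fold change of -0.69, SE 0.14 (adjusted p = 0.0115 in limma). Without siHNF4A replicate 1 the change was -0.60 and no longer past the threshold (adjusted p = 0.0705 in limma). VSIR, the gene of the inhibitory ligand VISTA, which the table lists under an older symbol, had 64.4 and 50.8 in the controls, against 34.8 and 44.1 in the knockdown and missed the threshold (adjusted p = 0.247 in limma). The BTN2 and BTN3 genes, some of whose products signal phosphoantigens to gamma-delta T cells, were not called either, with log2 fold changes from -0.14 for BTN3A2 to 0.36 for BTN2A2. BTN1A1, BTNL2 and MOG were between 0 and 2.63 in every library.

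The receptors for these ligands belong on lymphocytes. Of 7 receptor genes 4 were in the table: CD28, CTLA4, PDCD1 and TMIGD2. None of these 4 exceeded 3.59 normalized counts in any library, which left 0 to test.

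Other surface ligands that activate or restrain T cells and NK cells were compared next, to see whether the change extended beyond the B7 fold. Of 23 genes 17 were in the table and 12 were tested, of which 2 fell and 10 were not called (16.7% called, close to the 14.1% of all genes), with a median log2 fold change of -0.067. PVR, the poliovirus receptor that binds TIGIT and CD226, had 1168 and 1331 normalized counts in the controls, against 874 and 919 in the knockdown. It fell by 0.48 on the log2 scale, SE 0.092 (adjusted p = 0.00873 in limma), and without siHNF4A replicate 1 by 0.44, no longer past the threshold (adjusted p = 0.0527 in limma). NECTIN2, which shares both receptors of PVR, had 1265 and 1400 in the controls, against 1107 and 998 in the knockdown. It fell by 0.34 on the log2 scale (adjusted p = 0.0353 in limma), which did not hold without control replicate 2, siHNF4A replicate 1 or siHNF4A replicate 2 (adjusted p of 0.128, 0.0531 and 0.197 in limma). The related NECTIN1, NECTIN3 and NECTIN4 were not called, at -0.12, 0.058 and 0.25, and whether they differ from PVR and NECTIN2 was not tested.

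CD58, the ligand of the T-cell adhesion receptor CD2, had 393 and 334 normalized counts in the controls, against 257 and 283 in the knockdown and was not past the threshold (adjusted p = 0.0681 in limma). LGALS9, which encodes the TIM-3 ligand galectin-9, had 966 and 1034 in the controls, against 1193 and 1157 in the knockdown (adjusted p = 0.0961 in limma). CD47, the "do not eat me" signal to macrophages, had 2014 and 2183 in the controls, against 2060 and 2105 in the knockdown. CD47 is also the next gene but 1 to HHLA2 on chromosome 3, and its log2 fold change was -0.0097. The TNF-family ligands and the receptor CD40 were scarcely expressed: TNFSF4, CD70 and CD40 did not exceed 2.92, and TNFSF9 lay between 5.06 and 7.77.

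Interferon-gamma induces PD-L1 through its receptor, the kinases JAK1 and JAK2 and the transcription factor IRF1, and the CMTM proteins keep PD-L1 on the cell surface. All 19 genes of this list were tested, and 4 were called (21.1%, against 14.1% of all genes), 1 higher and 3 lower, with a median log2 fold change of -0.14. In 18 of the 19 the libraries of the groups did not overlap, against 57% of all genes tested. SOCS1, the feedback inhibitor of JAK kinases, fell furthest, from 94.1 and 111 normalized counts to 40.6 and 40.5. Its log2 fold change was -1.31, SE 0.24 (adjusted p = 0.00627 in limma).

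STAT3 rose by less, from 4750 and 5041 normalized counts to 6198 and 6150, a log2 fold change of 0.34 (adjusted p = 0.00538 in limma). CMTM4 fell by 0.32 on the log2 scale (adjusted p = 0.00833 in limma), a call that was lost without siHNF4A replicate 2 (adjusted p = 0.0686 in limma), while CMTM6, its relative with the same role, was not called at 0.19. IRF1 fell by 0.36, from 947 and 1086 to 798 and 784 (adjusted p = 0.0353 in limma). That call was lost without any 1 of control replicate 2, siHNF4A replicate 1 and siHNF4A replicate 2 (adjusted p from 0.11 to 0.168 in limma).

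**Figure D2:**
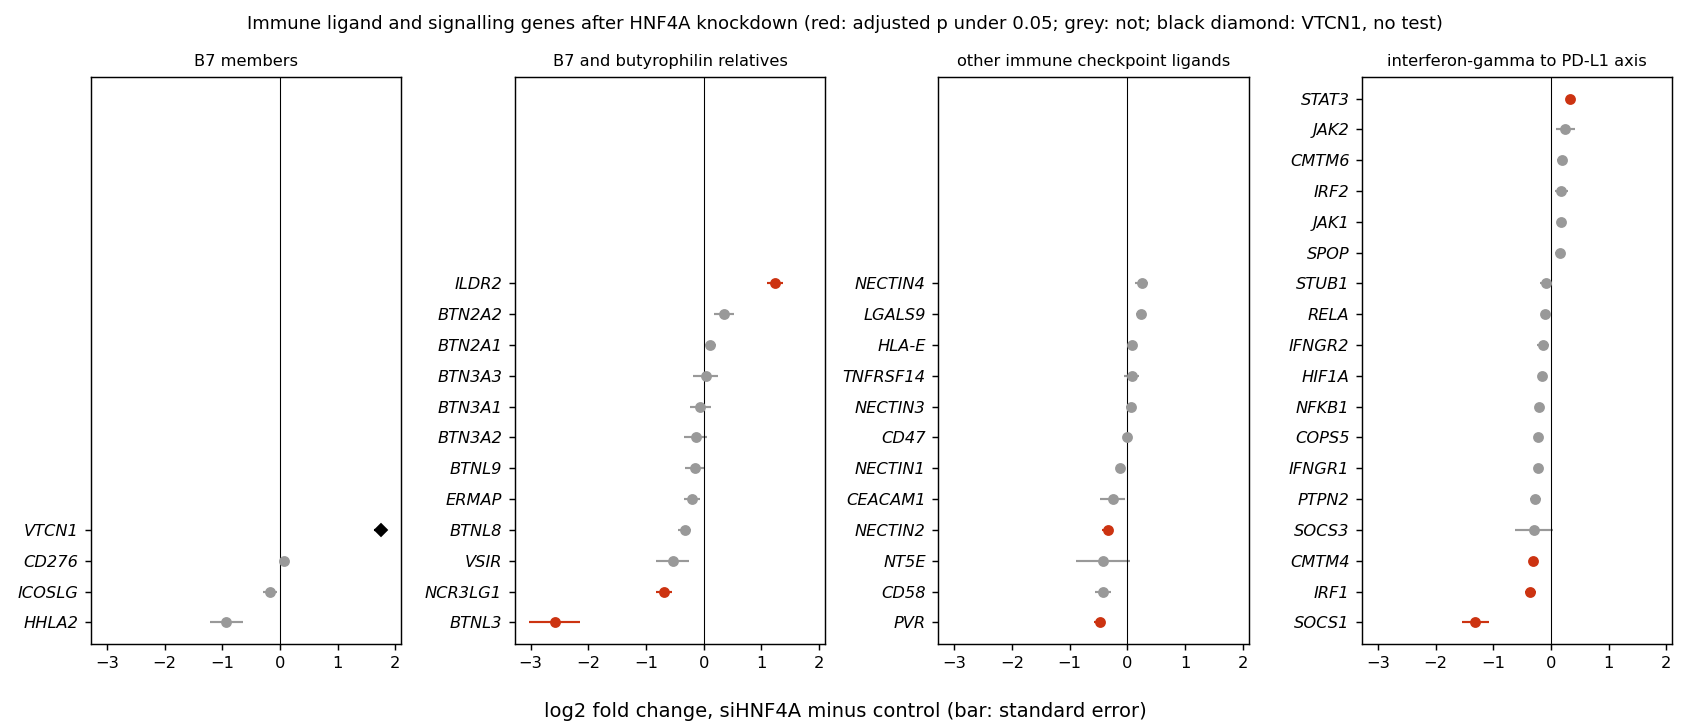
Log2 fold change of siHNF4A over control (horizontal axis, log2 scale, bars are standard errors) for the tested genes of the B7 ligands and of the 3 related lists, of which the interferon-gamma list is drawn with 18 of its 19 genes. Red points have an adjusted p under 0.05 in limma (BTNL3 was tested through its controls alone), grey points do not, and the black diamond is VTCN1, shown without a test at 1.75. ILDR2 at 1.24 is the other gene far to the right, and BTNL3 at -2.58 and SOCS1 at -1.31 lie far to the left.

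Genes next to the B7 ligands in the genome were examined to describe whether neighbours moved with them. The 5 nearest genes on each side that were in the table gave 70 neighbours at 7 loci, CD274 and PDCD1LG2 being adjacent. Of these 48 were tested and 7 called, which is 14.6%, close to the 14.1% of all genes, with 4 higher and 3 lower. The genes directly beside VTCN1 on chromosome 1 were not called. TRIM45, on one side, had 193 and 142 normalized counts in the controls, against 149 and 156 in the knockdown. MAN1A2, a Golgi mannosidase on the other side, had 2874 and 3123 in the controls, against 3660 and 3226 in the knockdown. Their log2 fold changes were -0.11 and 0.20 (adjusted p of 0.741 and 0.129 in limma).

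The second gene beyond VTCN1 on the MAN1A2 side, TENT5C, a poly(A) polymerase listed as FAM46C, rose from 36.7 and 40.1 normalized counts to 76.2 and 80.0. Its log2 fold change was 1.01 (adjusted p = 0.0253 in limma), which was lost without siHNF4A replicate 1 or siHNF4A replicate 2 (adjusted p of 0.114 and 0.144 in limma). WDR3, further along and needed for ribosome assembly, fell by 0.33 on the log2 scale (adjusted p = 0.0133 in limma), which was likewise lost without siHNF4A replicate 1 or siHNF4A replicate 2 (adjusted p of 0.0811 and 0.0546 in limma). These were the 2 called of the 8 tested neighbours of VTCN1, where 14.1% of all genes were called.

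Beside CD86 on chromosome 3, ILDR1 and SLC15A2 both rose. ILDR1, a tricellular junction protein of the same small family as ILDR2, went from 264 and 261 normalized counts to 460 and 474, a log2 fold change of 0.83 (adjusted p = 0.00192 in limma). SLC15A2, a peptide transporter, went from 54.04 and 72.3 to 127.4 and 126.7, a log2 fold change of 1.01 (adjusted p = 0.0153 in limma), lost without siHNF4A replicate 1 or siHNF4A replicate 2 (adjusted p of 0.0826 and 0.084 in limma). As ILDR1 overlaps CD86, the few CD86 counts lie at a locus shared with a gene that rose. At the other loci PFKL near ICOSLG rose by 0.49 on the log2 scale (adjusted p = 0.00224 in limma). POGLUT1 near CD80 and CIP2A near HHLA2 fell by 0.42 and 0.37 (adjusted p of 0.0433 and 0.026 in limma), calls that were lost without control replicate 1, siHNF4A replicate 1 or siHNF4A replicate 2 (adjusted p from 0.0594 to 0.187 in limma).

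**Figure D3:**
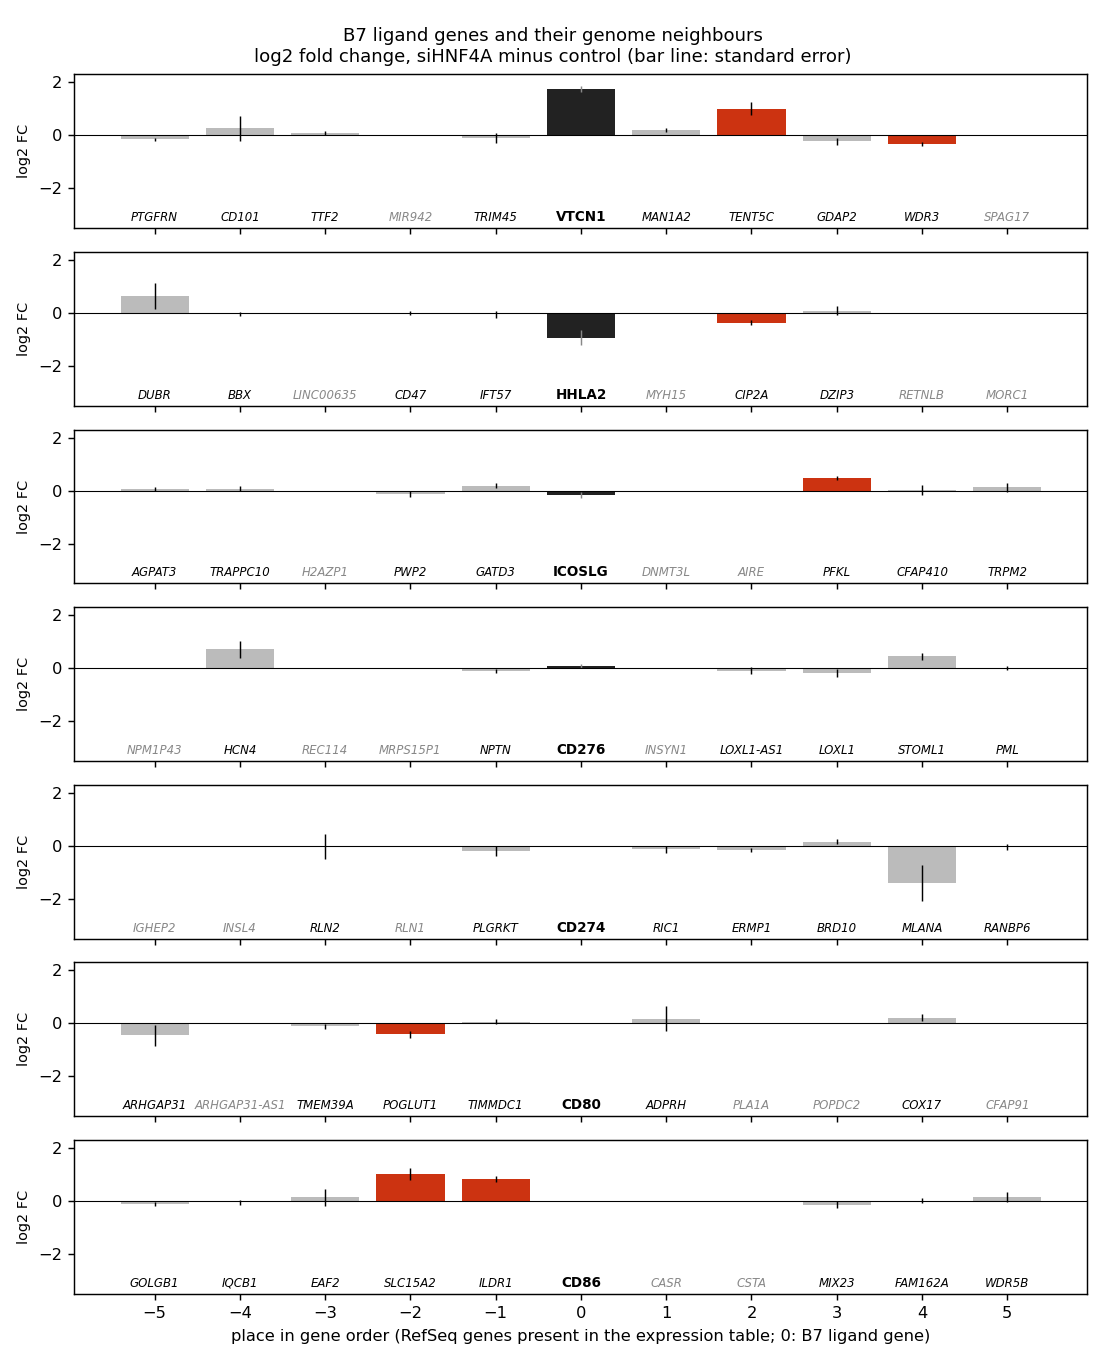
Log2 fold change of siHNF4A over control (vertical axes, log2 scale, lines are standard errors) for the B7 ligand at place 0 (black) and the 5 nearest genes on each side in RefSeq gene order. Red bars have an adjusted p under 0.05 in limma, grey bars do not, and genes under the filter have a grey name and no bar. VTCN1 at 1.75 is flanked by TRIM45 and MAN1A2, at -0.11 and 0.20.

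The genes whose profile over the 4 libraries was most like that of VTCN1 were found by the Euclidean distance between centred log2(normalized count + 1) values, among 10917 other genes whose mean reached 100 normalized counts. They were picked by the same contrast, so their changes are given with no test. The nearest was GNA14, a G-protein alpha subunit, at a distance of 0.17, with 61.4 and 71.2 normalized counts in the controls, against 202 and 199.5 in the knockdown. MYCL, a MYC-family transcription factor, followed at 0.24, with 155 and 141 in the controls, against 492 and 453 in the knockdown. HIST1H2BD, another histone H2B gene, stood at 0.297, AGR3, a protein of the disulfide isomerase family, at 0.36 and the pseudogene ZNF702P at 0.395. All 5 were about as far apart between the groups as VTCN1, with log2 differences from 1.43 to 1.75. No B7 ligand or relative was among them. HHLA2, CD274, CD80 and CD86 were under a mean of 100 and could not appear. CD276 and ICOSLG, at log2 fold changes of 0.067 and -0.17, were already known to lie far from VTCN1, so nothing is read from their absence.

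**Figure D4:**
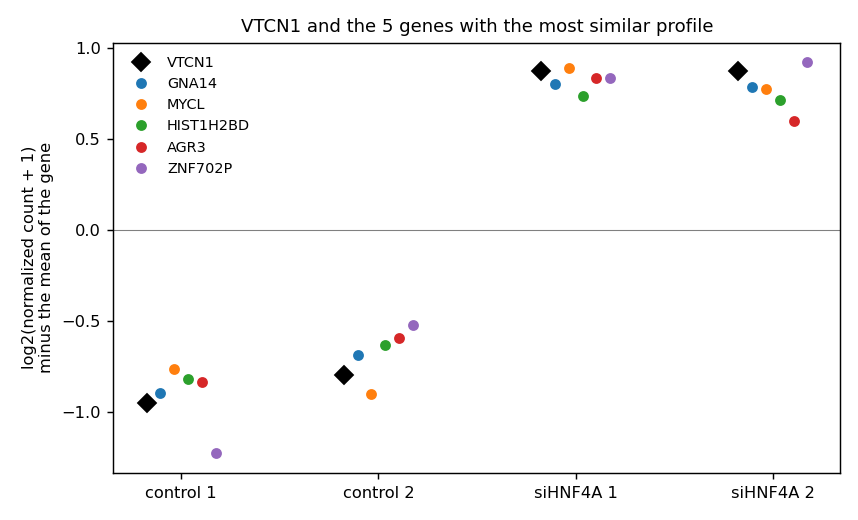
Log2(normalized count + 1) minus the mean of each gene (vertical axis) in the 4 libraries for VTCN1 (black diamond) and the 5 genes nearest to it by Euclidean distance, spread sideways within a library for visibility. In both knockdown libraries all 6 genes are above their own mean, and in both control libraries all 6 are below it.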

How the data were processed

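RNA-seq of 2 siHNF4A and 2 control libraries of ESO26 was used. Libraries were grouped by their titles. The authors deposited a normalized count per gene symbol, a signal value that is fractional. The normalization, counting program, annotation and strand setting are not given in the sources used here. The submitters' processing notes name hg19, Bowtie, Bowtie2, Trim Galore, Picard and MACS2 for the series. Between 23.1% and 53.2% of values under 20 lay on whole multiples of the commonest low step (within 2% of a step), so read numbers could not be recovered and a count model was not used.

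Differences were tested with limma 3.58.1 in R 4.3.3 (lmFit, eBayes with trend) on log2(normalized count + 1), for 15577 genes with a mean of at least 10, with Benjamini-Hochberg adjustment over all of them. The threshold was an adjusted p under 0.05. The smallest p of an exact two-sided permutation test on 1 gene in this design is 0.333, so each p rests on variances shared across genes. The fit was checked on simulated data. Peak and 4C data were not used, and 1 gene of the interferon-gamma list is counted but not reported here. Members and lists were chosen with earlier results of these data known. All members, each called gene of the 4 pathway lists and of the neighbours, the 5 genes most like VTCN1 and its neighbours by rank are named, with others chosen after their values were seen. Of the symbols on the lists, 5 were matched under older names. Alternatives were other pseudocounts (0.5, 5), median-of-ratios and quantile scaling, a filter at 50, no filter, no variance trend, a replicate block and leaving out each library.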

Additional observations from a re-analysis of the deposited data

How the results depend on the processing

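The log2 fold change of VTCN1, 1.75 as reported, lay between 1.73 and 1.77 with other pseudocounts and scalings and between 1.67 and 1.82 with 1 library left out. The count of called genes, 2202, was 726 without the filter (30247 tested), 0 without the variance trend (3524 at an unadjusted p under 0.05), and from 1013 to 2449 with 1 library left out. Without the trend 0 genes were also called among the B7 relatives, the other checkpoint ligands, the interferon-gamma axis and the neighbours, so every call in the report is lost there. The cause was not tested. Quantile normalization gave 1 called B7 ligand other than VTCN1 (HHLA2, none in the reported fit), 1 other checkpoint ligand, and 1031 higher against 1027 lower genes in place of 938 against 1264. Without the filter 0 other checkpoint ligands and 2 neighbours were called. BTNL3, tested through its controls alone, was among the called relatives in every fit that tested it and kept the variance trend. Nothing is therefore read from the number of relatives called, including where a library was left out. With 1 library left out, calls ranged from 2 to 4 for the relatives, 0 to 2 for the other checkpoint ligands, 2 to 6 for the interferon-gamma axis, 2 to 7 for the neighbours and stayed at 0 for the B7 ligands other than VTCN1. In all, 226 values were computed for 19 named genes (BTNL3, which passed the filter through the controls alone, included), of which 176 kept both sign and call, 49 lost the call, 1 gained it and 0 changed sign. With the replicate number as a replicate block 2428 genes were called, and none of the 19 genes changed sides. Same-numbered libraries did not deviate together (Pearson correlation across 15577 genes of -0.0192), so the numbers were not taken as pairs. For CD274, CD80, CD86 and the receptors, levels near 0 limit what could be seen.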

Other observations

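Markers of the columnar epithelium changed in both directions after knockdown, and they were named after their values were seen. MUC1, a membrane mucin of glandular epithelium, rose from 2145 and 2332 normalized counts in the controls to 4687 and 4169 in the knockdown (log2 fold change 0.98, adjusted p = 9.72e-05 in limma). KRT19, a keratin of simple epithelia, rose by 0.22 on the log2 scale (adjusted p = 0.0192 in limma). The keratins KRT8 and KRT18, which pair in simple epithelia, fell by 0.43 and 0.51 (adjusted p of 0.00162 and 7.19e-04 in limma). The adhesion molecule EPCAM and the tight junction protein CLDN4 fell by 0.29 and 0.30 (adjusted p of 0.00286 and 0.0278 in limma). CDH1, KRT20 and VIL1 were not called (adjusted p of 0.0937, 0.873 and 0.409 in limma). Apart from the fit without the variance trend, where every call was lost, these markers were not followed through the alternatives.

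Of 8 squamous markers listed, 2 passed the filter, and they lay in opposite directions. KRT14, a basal keratin, had 0.64 and 2.29 normalized counts in the controls, against 12.2 and 25.7 in the knockdown, while its partner KRT5 had 32.6 and 12.1 in the controls, against 6.14 and 10.51 in the knockdown. VWF, an endothelial gene, had 8.55 and 6.68 in the controls, against 47.5 and 36.4 in the knockdown, and the other endothelial gene in the table, CDH5, lay between 8.48 and 16.5 in all 4 libraries. KRT14 and VWF passed the filter through the knockdown libraries alone, so no test is given for them. LSR, of the same family as ILDR1 and ILDR2, had 2321 and 2632 normalized counts in the controls, against 3184 and 2777 in the knockdown and was not past the threshold (adjusted p = 0.0727 in limma).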
